A study of Mus musculus with 18 samples.

Results

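Fatty acid synthesis and desaturation genes were followed across 18 kidney RNA libraries of ICR mice, an outbred strain. They are 10 of the 19517 genes of the table, chosen by symbol: Srebf1, Acly, Me1, Acaca, Fasn, Elovl6, Scd1, Scd2, Gpam and Dgat2. All 10 had values high enough to be tested. The libraries fall into 6 groups of 3, all from mice aged 10 weeks. Of these, 4 were on a high fat diet (HFD): one with faecal microbiota transplantation (FMT) labelled AOS 10 mg/kg (HFD+AOS-FMT), one with a control FMT (HFD+control-FMT), one with AOS itself at a dose of 10 mg/kg (HFD+AOS) and one with nothing further (HFD). The rest were AOS at that dose with no diet named (AOS) and controls (control). The abbreviation AOS is not spelled out in the labels. The labels name neither the transplant donors nor the sex of the mice. Whether replicates are separate animals is not stated, and the p-values therefore cover the spread between these samples alone, which may be technical.

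In the pathway these genes belong to, cytosolic citrate is cut to acetyl-CoA, acetyl-CoA is carboxylated and built into palmitate with NADPH, and the chain is then elongated, given a double bond and attached to glycerol. The transcription factor SREBP-1, made from Srebf1, switches on many of the enzymes, and insulin and dietary fat are known to act on the pathway in liver and fat tissue. Fat cells use the pathway heavily, and the kidney is surrounded by fat.

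Scd1, the main stearoyl-CoA desaturase of many mouse tissues, showed the widest difference between groups. All 12 libraries of HFD groups had Scd1 signals between 10.1 and 27.9, against 27.8 to 82.1 in the 6 libraries of mice without HFD, where the lowest was control replicate 3 and the next 37.1. This split by diet was not planned and is given without a test or a share of all genes. In HFD against control and in HFD+AOS against AOS, Scd1 did not pass. Scd1 fell in HFD+AOS-FMT against control, and Dgat2, which makes triglyceride from diacylglycerol, rose in the same comparison. No other member passed the test in any of the 8 comparisons of groups. All values are normalized signals with no stated unit, so levels of different genes are not compared, and every difference was taken after a log2(value + 1) step that shrinks the change of low genes.

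Control replicate 3 stood apart, with a correlation of 0.948 to 0.963 with the other 17 libraries across genes, which correlated at 0.979 to 0.993 among themselves, and 8 adrenal gland genes summed to 922 in it and to 0.81 to 2.31 in every other library. Transcripts of 7 testis germ cell genes summed to 26.9 to 40.7 in HFD replicates 1 and 2 and the 3 control libraries. In the other 13 they summed to at most 0.3. Only HFD held libraries of both kinds. Every value or lost call given below with a germ cell term therefore rests on HFD replicate 3 against HFD replicates 1 and 2. Another germ cell gene of the list, Smcp, was left out of these sums and of the term. Smcp was at 30.2 to 33.6 in HFD and control replicates 1 and 2 and at 14.25 in control replicate 3. In the other 13 libraries Smcp was at 11.7 to 27.0. Fat transcripts varied within groups: the 6 white fat genes summed to 25.03 to 68.9 in HFD+AOS-FMT, 34.7 to 83.2 in HFD+control-FMT, 30.2 to 73.3 in HFD+AOS, 54.2 to 196 in HFD, 24.1 to 312 in AOS and 30.8 to 265 in control libraries. Kidney markers were present in every library, in unequal amounts. In control replicate 3, 5 proximal tubule genes summed to 2429 (3120 to 4369 in the others), 4 collecting duct genes to 341 (88.7 to 217) and 4 podocyte genes to 98.1 (27.5 to 66.0). HFD+AOS-FMT replicate 2 had the highest sums of the other 17 libraries for loop of Henle (1677), collecting duct (217), podocyte (66.0) and endothelial genes (75.3). In HFD against control, 3 of 4 collecting duct and 3 of 4 podocyte genes were lower at an unadjusted p under 0.05 in limma, where 17.4% of all genes had one in either direction. The part of these shifts in the results was not tested. In whole tissue, fewer cells of a type and less RNA per cell cannot be told apart.

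**Figure D1:**
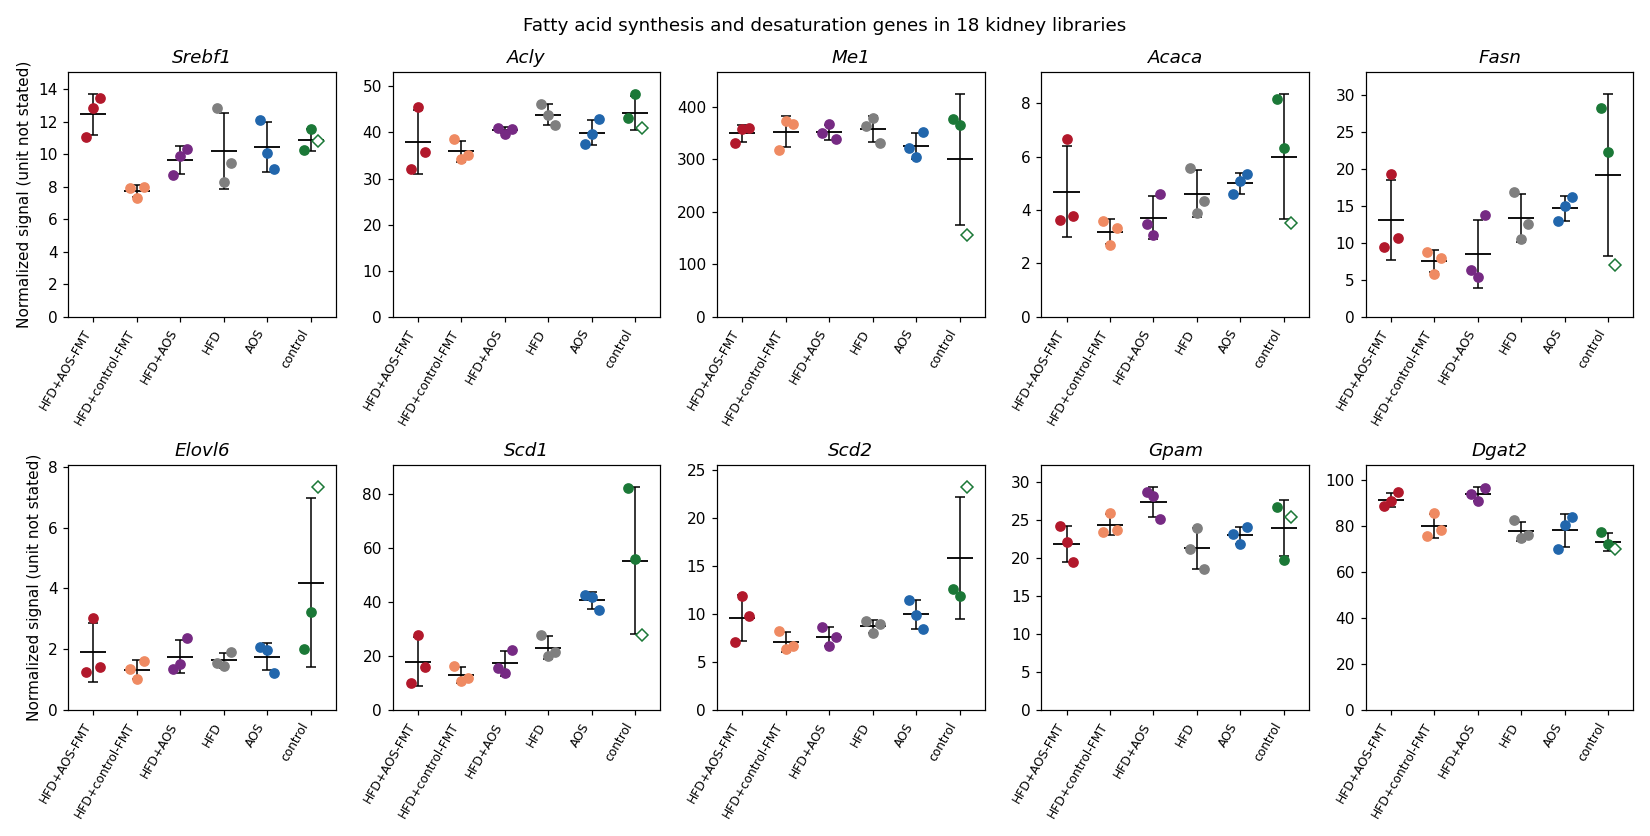
Normalized signal (vertical axes, from 0) of the 10 members in each library, by group, with 1 point per library, the open diamond for control replicate 3, and black lines for mean and SD (n = 3). Scd1 reaches at most 27.9 in the HFD groups, Dgat2 is highest in HFD+AOS and HFD+AOS-FMT, and Elovl6, Scd2 and Me1 have their extreme value in control replicate 3.

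Srebf1 (chromosome 11, 60199089 to 60222581, minus strand) encodes the transcription factor at the head of the pathway. Its signal was 11.04, 12.9 and 13.4 in HFD+AOS-FMT libraries, 7.95, 7.33 and 7.96 in HFD+control-FMT, 8.69, 9.88 and 10.3 in HFD+AOS, 12.8, 8.29 and 9.46 in HFD, 12.1, 10.1 and 9.09 in AOS, and 10.3, 11.6 and 10.8 in control libraries. The 3 HFD+control-FMT libraries were the lowest of all 18. HFD+AOS-FMT was the highest group by its mean and overlapped with control, and HFD+AOS, the group next above HFD+control-FMT, did not overlap with it.

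Between the transplants, Srebf1 averaged 12.4 ± 1.25 in HFD+AOS-FMT and 7.75 ± 0.361 in HFD+control-FMT (SD, n = 3 each). This log2 difference of 0.62 (SE 0.13) had the smallest unadjusted p of the members in any comparison of groups (0.000246) and did not pass over all genes (limma adjusted p = 0.358). No alternative that was run brought it past the threshold. Against HFD (10.2 ± 2.35), the log2 difference was 0.28 in HFD+AOS-FMT (limma adjusted p = 0.368) and -0.34 in HFD+control-FMT (0.9996), and neither passed. Both use the same HFD libraries and depend on them: without HFD replicate 1 the differences were 0.44 and -0.17, and without HFD replicate 2 that of HFD+AOS-FMT was 0.16.

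The table gives 1 value per gene, and RefSeq lists 3 start sites for Srebf1, which this value cannot tell apart. Promoter windows of 300 bases (250 before to 50 after a start, GRCm38.p6) were found for 7 of the 10 members, 11 windows in all. They are shown for Srebf1, whose level differed most between the transplants by unadjusted p, and for Fasn, the enzyme that makes the fatty acid chain. Capitals mark CCAAT boxes (CCAAT) and GC boxes (GGGCGG) on either strand. The Fasn window is at chr11:120824498-120824797 and the Srebf1 windows are at chr11:60222532-60222831, chr11:60220578-60220877 and chr11:60210422-60210721, all on the minus strand and written 5′ to 3′.
Fasn: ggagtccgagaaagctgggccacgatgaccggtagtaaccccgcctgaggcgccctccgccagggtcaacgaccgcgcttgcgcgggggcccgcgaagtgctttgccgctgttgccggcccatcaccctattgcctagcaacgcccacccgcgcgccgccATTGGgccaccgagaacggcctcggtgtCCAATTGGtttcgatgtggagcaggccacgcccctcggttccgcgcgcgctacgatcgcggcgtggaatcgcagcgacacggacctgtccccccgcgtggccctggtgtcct
Srebf1 window 1: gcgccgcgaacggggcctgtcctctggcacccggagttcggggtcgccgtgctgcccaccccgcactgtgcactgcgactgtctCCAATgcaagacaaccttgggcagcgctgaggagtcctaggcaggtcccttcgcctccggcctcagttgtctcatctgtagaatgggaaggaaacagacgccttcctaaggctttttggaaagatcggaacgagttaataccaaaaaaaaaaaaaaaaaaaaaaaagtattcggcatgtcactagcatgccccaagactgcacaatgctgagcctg
Srebf1 window 2: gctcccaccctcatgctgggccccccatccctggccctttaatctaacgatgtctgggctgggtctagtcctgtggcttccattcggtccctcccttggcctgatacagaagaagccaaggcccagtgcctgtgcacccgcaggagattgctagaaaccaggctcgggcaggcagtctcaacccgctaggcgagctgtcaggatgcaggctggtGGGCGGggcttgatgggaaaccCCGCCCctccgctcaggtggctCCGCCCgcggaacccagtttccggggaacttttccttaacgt
Srebf1 window 3: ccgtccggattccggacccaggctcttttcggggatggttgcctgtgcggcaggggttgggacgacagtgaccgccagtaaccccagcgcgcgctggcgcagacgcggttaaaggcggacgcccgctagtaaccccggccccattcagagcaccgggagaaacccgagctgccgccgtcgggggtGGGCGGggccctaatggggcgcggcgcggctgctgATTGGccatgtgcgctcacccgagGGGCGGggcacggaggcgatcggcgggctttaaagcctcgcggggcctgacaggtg
The Fasn window held 3 CCAAT boxes and no GC box, and 2 of the 3 overlap each other on opposite strands. Srebf1 window 1 held 1 CCAAT box, window 2 held 3 GC boxes, and window 3 held 2 GC boxes and 1 CCAAT box. Over the 11 windows of members, 6 held a CCAAT box, against 37.4% of all 32851 windows, and 5 a GC box, against 35.7%. The letters TCACNCCAC of a sterol regulatory element, searched on both strands, were in 0 of the 11 windows and in 1.24% of all windows. The E-box CACGTG was in 0 of the 11 and in 7.15% of all windows. With shares this low, 0 of 11 cannot set the members apart from other genes. Variants of these elements with other letters were not searched.

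Acly (chromosome 11, 100476353 to 100528000, minus strand), the ATP citrate lyase that makes cytosolic acetyl-CoA, varied little. Its signal was 32.2, 45.6 and 35.8 in HFD+AOS-FMT, 38.5, 34.1 and 35.1 in HFD+control-FMT, 41.1, 39.8 and 40.8 in HFD+AOS, 46.1, 43.8 and 41.7 in HFD, 37.4, 39.7 and 42.9 in AOS and 43.2, 48.3 and 41.0 in control libraries. All 3 HFD+control-FMT libraries lay below all 3 HFD libraries. The log2 difference was -0.28 (SE 0.10) in HFD+control-FMT against HFD (limma adjusted p = 0.9996), -0.22 in HFD+AOS-FMT against HFD (0.367) and -0.23 in HFD+AOS-FMT against control (0.237), and none passed. The differences of HFD+AOS-FMT were -0.11 against HFD and -0.12 against control without its replicate 1, and -0.36 and -0.37 without its replicate 2. With the germ cell term, which rests on the 3 HFD libraries, the difference against control was -0.12. With array weights it was -0.36 and passed (limma adjusted p = 0.038). Me1 (chromosome 9, 86581371 to 86695953, minus strand), the malic enzyme that supplies NADPH, lay between 303 and 378 in 17 libraries and at 156 in control replicate 3. No comparison gave Me1 an unadjusted p under 0.05.

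Acaca (chromosome 11, 84129672 to 84401651, plus strand) encodes the acetyl-CoA carboxylase that makes malonyl-CoA, the committed step, and Fasn (chromosome 11, 120805846 to 120824547, minus strand) the fatty acid synthase. Fasn was at 9.36, 19.3 and 10.6 in HFD+AOS-FMT, 8.69, 5.81 and 7.97 in HFD+control-FMT, 6.34, 5.36 and 13.7 in HFD+AOS, 16.9, 10.6 and 12.5 in HFD, 12.9, 14.9 and 16.2 in AOS and 28.1, 22.3 and 7 in control libraries. HFD+AOS-FMT replicate 2, HFD+AOS replicate 3 and control replicate 3 lay far from the other two of their groups. Acaca ran from 2.68 in HFD+control-FMT replicate 2 to 8.16 in control replicate 1 and was highest in the same HFD+AOS-FMT and HFD+AOS libraries as Fasn (6.67 and 4.60). No comparison gave either gene an unadjusted p under 0.05, although both were lower in all 3 HFD+control-FMT libraries than in all 3 HFD and all 3 HFD+AOS-FMT libraries.

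In 3 of the 6 groups, HFD+AOS-FMT, HFD+AOS and HFD, the library with the highest Fasn also had the highest Ucp1. The full order of the 3 libraries was the same by both genes in only 1 of the 6 groups, HFD. By the sum of white fat genes, the order was that of Fasn in HFD+control-FMT, HFD+AOS, AOS and control. It was not in HFD+AOS-FMT or HFD. Ucp1, the uncoupling protein of brown fat, was at 62.5 in HFD+AOS-FMT replicate 2 and 73.6 in HFD+AOS replicate 3, against 12.4 to 20.3 and 1.27 to 2.00 in the other 2 libraries of these groups. Within HFD, replicate 1 had the highest Ucp1 (42.9), Fasn (16.9), Scd1 (27.9) and Srebf1 (12.8). In HFD+control-FMT, replicate 1 had the highest Fasn (8.69) and the lowest Ucp1 (0.46), while replicate 3 had Ucp1 at 21.6 and Fasn at 7.97. Among control libraries, replicate 1 had the highest Fasn (28.1) and Ucp1 at 1.03, with white fat genes at their group's highest sum of 265. The part of fat transcripts in the values of Fasn and Acaca was not tested.

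**Figure D2:**
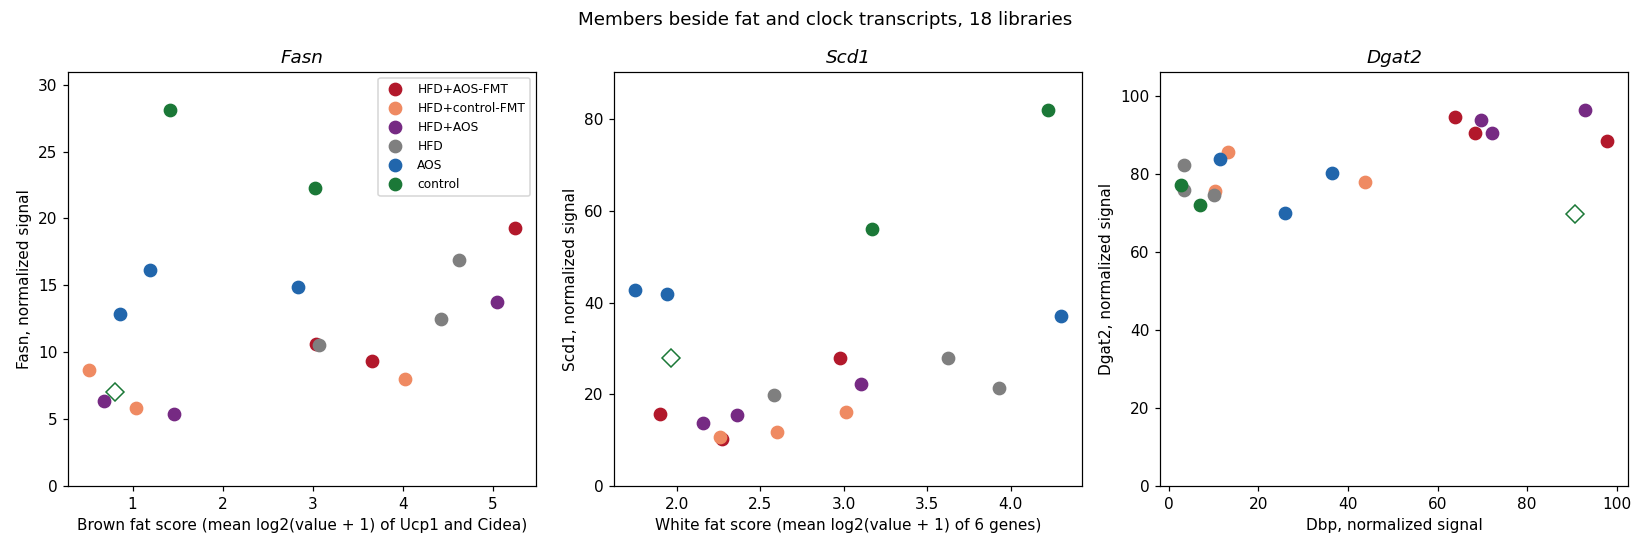
Each point is 1 of 18 libraries, with the open diamond for control replicate 3. Vertical axes give the signal of Fasn, Scd1 and Dgat2. Horizontal axes give a brown fat score (Ucp1 and Cidea), a white fat score (both log2 scales) and the signal of the clock gene Dbp. AOS replicate 3 has the highest white fat score and a Scd1 signal of 37.1, while the 6 libraries of HFD+AOS-FMT and HFD+AOS have Dgat2 at 88.5 or more and Dbp at 63.8 or more.

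Elovl6 (chromosome 3, 129532355 to 129638495, plus strand), which elongates palmitate to stearate, was low throughout. It stood at 1.25, 3.01 and 1.42 in HFD+AOS-FMT, 1.35, 1.02 and 1.62 in HFD+control-FMT, 1.36, 1.52 and 2.37 in HFD+AOS, 1.56, 1.43 and 1.91 in HFD, 2.07, 1.97 and 1.23 in AOS and 2.00, 3.23 and 7.32 in control libraries. The control group's mean rests on replicate 3, the library with adrenal transcripts. Against control, the log2 difference was -0.85 in HFD, -0.79 in AOS and -0.76 in HFD+AOS-FMT with limma adjusted p of 0.237, 0.363 and 0.185. Without control replicate 3 these differences were -0.44, -0.38 and -0.35, with unadjusted p of 0.0859, 0.129 and 0.164 in limma.

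Scd1 (chromosome 19, 44394455 to 44407879, minus strand) puts the double bond into stearate to make oleate. Its signal was 10.1, 27.8 and 15.8 in HFD+AOS-FMT, 16.1, 10.6 and 11.8 in HFD+control-FMT, 15.6, 13.8 and 22.3 in HFD+AOS, 27.9, 19.9 and 21.5 in HFD, 42.6, 42.0 and 37.1 in AOS and 82.1, 56.0 and 27.8 in control libraries. By group means, from low to high, the order was HFD+control-FMT, HFD+AOS, HFD+AOS-FMT, HFD, AOS and control. Neighbours in this order overlapped except HFD and AOS, and the F test over the 6 groups called Scd1 (limma adjusted p = 0.0443), the only member of 10 it called, where 1.02% of all genes passed. This call was lost in 16 of the 18 fits that left out 1 library, all except those without HFD+AOS-FMT replicate 2 or control replicate 3.

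In HFD+AOS-FMT against control, Scd1 fell to 17.9 ± 9.03 in HFD+AOS-FMT, against 55.3 ± 27.1 in control libraries (SD, n = 3 each, log2 difference -1.55, SE 0.35, limma adjusted p = 0.0364). The groups did not overlap, by a narrow margin: the highest HFD+AOS-FMT library was at 27.81 and the lowest control library at 27.82. Without control replicate 3 the difference was -1.97 (adjusted p = 0.00709). The call was lost without HFD+AOS-FMT replicate 1 (-1.23, adjusted p = 0.12), HFD+AOS-FMT replicate 3 (-1.52, 0.117), control replicate 1 (-1.21, 0.0799) or any 1 AOS library (0.0504 to 0.0511). It was also lost with brown fat as a covariate (-1.83, 0.0571), with both fat scores (-1.55, 0.114), in the fit of the 2 groups alone (0.553), and with a term for the germ cell transcripts (-1.42, 0.682), which every control library holds and no HFD+AOS-FMT library does.

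The diet comparisons gave Scd1 values of the same sign that did not pass. HFD stood at 23.1 ± 4.23 against 55.3 ± 27.1 in control libraries (log2 difference -1.11, limma adjusted p = 0.234), and HFD+AOS at 17.2 ± 4.50 against 40.6 ± 3.03 in AOS libraries (-1.21, 0.226). The second comparison holds neither control replicate 3 nor a library with germ cell transcripts. Its groups did not overlap, which was not counted over all genes. With white fat as a covariate its difference was -1.18. With brown fat as a covariate, chosen after the data were seen, the difference was -1.31. With array weights it was -1.26 and passed (limma adjusted p = 0.0264). HFD+control-FMT stood at 12.8 ± 2.93 against 23.1 ± 4.23 in HFD libraries (-0.81, adjusted p = 0.9996). That difference was -0.58 with white fat, -0.54 with brown fat and -0.43 with both as covariates.

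Within groups, the 3 libraries had the same order by Scd1 and by the sum of white fat genes in 3 of the 6 groups, HFD+control-FMT, HFD+AOS and control. In control libraries, Scd1 of 82.1, 56.0 and 27.8 stood beside white fat sums of 265, 98.8 and 30.8. In AOS libraries, Scd1 of 42.6, 42.0 and 37.1 stood beside sums of 24.1, 25.6 and 312. The part of white fat in the Scd1 differences was not tested beyond the covariate values given.

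Scd2 (chromosome 19, 44293674 to 44306864, plus strand), a second stearoyl-CoA desaturase, known for its expression in brain, had 7.05, 11.8 and 9.78 in HFD+AOS-FMT, 8.25, 6.31 and 6.64 in HFD+control-FMT, 8.62, 6.63 and 7.61 in HFD+AOS, 9.29, 7.97 and 8.94 in HFD, 11.5, 9.91 and 8.48 in AOS and 12.6, 11.8 and 23.2 in control libraries. All control libraries lay above all HFD and AOS libraries, a split that was not counted over all genes. The log2 difference was -0.73 in HFD, -0.57 in AOS and -0.64 in HFD+AOS-FMT against control (limma adjusted p = 0.228, 0.363 and 0.123). Without control replicate 3, the highest of the 18, they were -0.44, -0.28 and -0.35.

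The ratio of Scd1 to Scd2 within a library was 1.44 to 3.00 in the 12 libraries of HFD groups and 3.71 to 6.54 in 5 of the 6 libraries without HFD, and control replicate 3 was at 1.2. Within HFD groups it was 1.44 to 2.35 in HFD+AOS-FMT, 1.67 to 1.96 in HFD+control-FMT, 1.81 to 2.93 in HFD+AOS and 2.40 to 3.00 in HFD libraries. The ratio was formed after the values were seen and is given without a test.

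**Figure D3:**
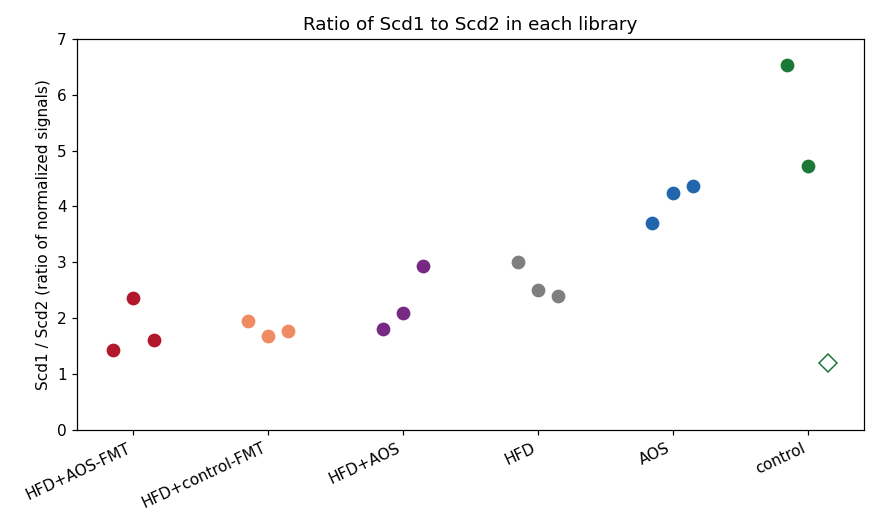
Ratio of the Scd1 signal to the Scd2 signal (vertical axis, from 0) in each of 18 libraries, by group, with the open diamond for control replicate 3. The HFD groups reach at most 3.00, and all libraries without HFD lie at 3.71 or above except control replicate 3 at 1.2.

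Gpam (chromosome 19, 55067268 to 55127238, minus strand), the mitochondrial acyltransferase that starts glycerolipid assembly, was at 24.2, 22.1 and 19.4 in HFD+AOS-FMT, 23.4, 26.0 and 23.8 in HFD+control-FMT, 28.7, 28.2 and 25.1 in HFD+AOS, 21.2, 24.0 and 18.6 in HFD, 23.2, 21.8 and 24.1 in AOS and 26.7, 19.8 and 25.4 in control libraries. HFD+AOS and HFD libraries did not overlap, and how many of all genes did so was not counted. The log2 difference was 0.35 (SE 0.11, limma adjusted p = 0.15). With the germ cell term the difference was 0.53, a value that sets HFD+AOS against HFD replicate 3 alone. The difference between this effect of AOS under HFD and that of AOS against control was 0.40 (SE 0.16, limma adjusted p = 0.387). Gpam was the only member with an unadjusted p under 0.05 for that difference, where 12.4% of all genes had one and 0% passed.

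Dgat2 (chromosome 7, 99153658 to 99182719, minus strand) had a highest signal 1.38 times its lowest, the smallest such ratio of the 10 members. It stood at 88.5, 90.7 and 94.6 in HFD+AOS-FMT, 75.6, 85.7 and 78.2 in HFD+control-FMT, 93.9, 90.7 and 96.7 in HFD+AOS, 82.3, 74.7 and 75.9 in HFD, 70.1, 80.4 and 83.8 in AOS and 77.4, 72.1 and 69.9 in control libraries. The 6 libraries of HFD+AOS-FMT and HFD+AOS, from 88.5 to 96.7, lay above the other 12, from 69.9 to 85.7. This split of the libraries was not planned and is given without a test. How many of all genes split this way was not counted. Dgat2 rose in HFD+AOS-FMT, to 91.3 ± 3.09 against 73.1 ± 3.84 in control libraries (SD, n = 3 each, log2 difference 0.32, SE 0.07, limma adjusted p = 0.0351).

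That call held without each control library and was lost without any 1 HFD+AOS-FMT library (adjusted p = 0.0755 to 0.131), with the germ cell term (0.36, 0.593), with brown fat as a covariate (0.29, 0.155), with both fat scores (0.34, 0.114) and in the fit of the 2 groups alone (0.502). HFD+AOS against HFD gave 93.7 ± 2.99 and 77.6 ± 4.12 (log2 difference 0.27, limma adjusted p = 0.0911), which passed without control replicate 3 (0.0319), a library that enters only the shared spread, and with array weights (0.0255). The log2 difference was 0.26 in HFD+AOS against AOS (limma adjusted p = 0.2), 0.23 in HFD+AOS-FMT against HFD (0.178) and 0.19 in HFD+AOS-FMT against HFD+control-FMT (0.638). The groups did not overlap in any of the 3. In the last of them, 12.4% of all genes were higher without overlap, and in the others this share was not counted. With array weights, HFD+AOS-FMT against HFD passed (0.25, limma adjusted p = 0.0441).

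The same 6 libraries, and control replicate 3 with them, had high sums of 13 clock genes: 283 to 334 in the 6 and 347 in control replicate 3, against 118 to 239 in the other 11. Dbp was at 63.8 to 97.8 in HFD+AOS-FMT and 69.7 to 92.9 in HFD+AOS, against 10.4 to 43.7 in HFD+control-FMT, 3.26 to 10.2 in HFD, 11.5 to 36.5 in AOS and 2.76 to 90.6 in control libraries. Of 13 clock genes, 11 had an unadjusted p under 0.05 in HFD+AOS against HFD (limma), 7 higher and 4 lower, where 15.1% of all genes had one. In HFD+AOS-FMT against HFD, 10 had one, 7 higher and 3 lower, against 13.3% of all genes. Control replicate 3 had Dbp at 90.6 and the lowest Dgat2 of all libraries (69.9). When the kidneys were collected is not stated, so collection time and treatment cannot be told apart for Dgat2.

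**Figure D4:**
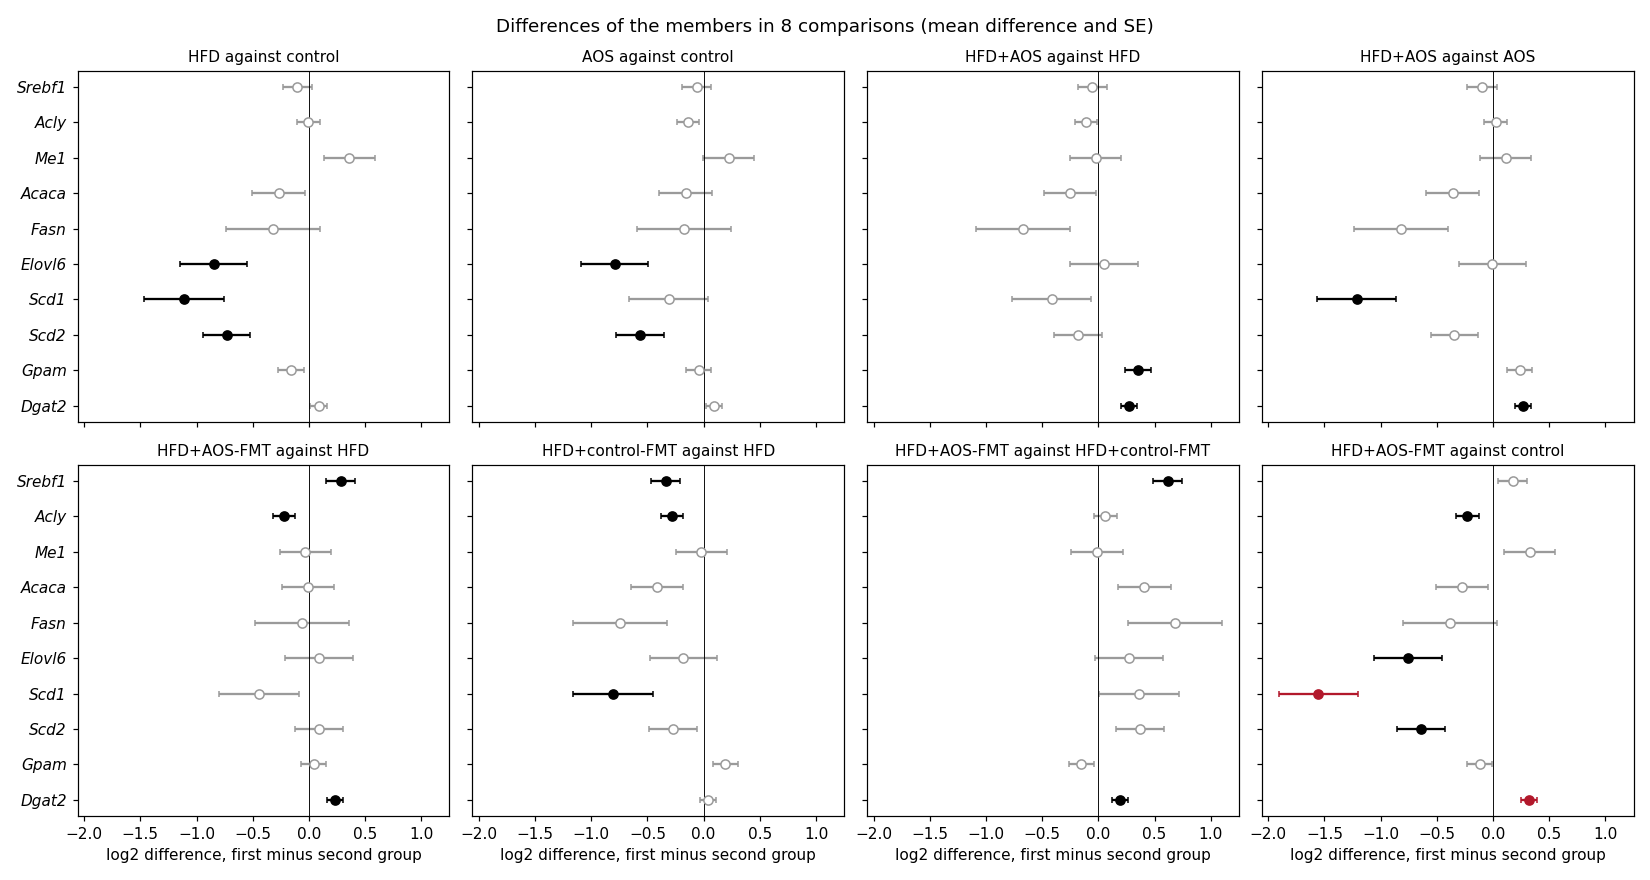
Log2 differences of the 10 members, first minus second group (horizontal axes), with SE bars, in 8 comparisons. Red points passed at a limma adjusted p of 0.05, filled black points had an unadjusted p under 0.05, and open points neither. Red appears only for Scd1 (-1.55) and Dgat2 (0.32) in HFD+AOS-FMT against control.

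By comparison, 2 of 10 members passed in HFD+AOS-FMT against control, Scd1 lower and Dgat2 higher, where 2.32% of 12030 genes passed in limma. An unadjusted p under 0.05 was found for 5 of 10 members there and for 19% of all genes. The median log2 difference of the members was -0.25, against -0.06 over all genes. In HFD against control, 0 members and 0% of genes passed, and 3 members (Elovl6, Scd1 and Scd2) and 17.4% of genes had an unadjusted p under 0.05. The medians there were -0.22 for the members and -0.10 over all genes.

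With the control transplant, set against HFD alone, 0 members and 0% of genes passed in limma, with 3 members (Srebf1, Acly and Scd1) and 4.5% of genes at an unadjusted p under 0.05. There 5 of 10 members (Srebf1, Acly, Acaca, Fasn and Scd1) were lower without overlap, as were 6.38% of all genes, and the medians were -0.28 for the members and 0.01 over all genes. In HFD+AOS-FMT against HFD+control-FMT, 0 members and 0% of genes passed in limma, and 2 members (Srebf1 and Dgat2) and 7.02% of genes had an unadjusted p under 0.05. There 4 of 10 members (Srebf1, Acaca, Fasn and Dgat2) were higher without overlap, as were 12.4% of all genes, with medians of 0.32 and 0.04. Both comparisons share the HFD+control-FMT libraries. In their replicates 1, 2 and 3, Ucp1 was at 0.46, 0.96 and 21.6 and Cidea at 0.41, 1.16 and 10.7. The other brown fat genes differed: Cox7a1 was at 43.6, 65.0 and 53.0 and Elovl3 at 0, 0.2 and 0.12. Ucp1 was also low in libraries of HFD+AOS (1.27 and 2.00), AOS (0.64 and 0.82) and control (1.03 and 0.72).

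In the other 4 comparisons no member passed in limma. In AOS against control, 0.0333% of genes passed, and 2 members (Elovl6 and Scd2) and 12.7% of genes had an unadjusted p under 0.05. In HFD+AOS against HFD, 0.823% of genes passed, and 2 members (Gpam and Dgat2) and 15.1% of genes had an unadjusted p under 0.05. In HFD+AOS against AOS these were 0% of genes, 2 members (Scd1 and Dgat2) and 11.1% of genes. In HFD+AOS-FMT against HFD they were 0.175% of genes, 3 members (Srebf1, Acly and Dgat2) and 13.3% of genes.

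A wider list of 59 genes of the pathway held 53 that were tested. Not tested were Elovl3, Elovl4, Scd3, Scd4 and Gpat2 for low values and Plin2, which has 2 entries. One of the 53 passed in a comparison of groups: Elovl1, which elongates saturated very long chains, fell to 72.5 ± 1.57 in HFD+AOS-FMT, against 89.1 ± 5.11 in control libraries (log2 difference -0.29, limma adjusted p = 0.0122), where 2.32% of all genes passed. It stood at 76.0 ± 0.960 in HFD+AOS, and the 6 libraries of these groups lay below the other 12 (71.1 to 76.8, against 80.3 to 94.7). As with Dgat2, this split was not planned and is given without a test or a share of all genes. The Elovl1 call was lost with the germ cell term (-0.31, adjusted p = 0.481), with brown fat (-0.27, 0.0611) or both fat scores as covariates (-0.27, 0.106) and in the fit of the 2 groups alone (0.527). The other 7 comparisons called 0 of the 53, with 5 to 11 at an unadjusted p under 0.05 in limma, where 4.5% to 17.4% of all genes had one.

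The F test over the 6 groups called 2 of the 53, Elovl1 (limma adjusted p = 0.0337) and Fads1 (0.0401), where 1.02% of all genes passed. Fads1, the delta-5 desaturase of polyunsaturated fatty acids, was at 23.7 ± 0.697 in HFD+AOS-FMT, 19.1 ± 0.592 in HFD+control-FMT, 20.0 ± 3.22 in HFD+AOS, 25.1 ± 2.26 in HFD, 26.6 ± 2.10 in AOS and 29.7 ± 4.20 in control libraries. Its order of groups by mean was that of Scd1, lowest in HFD+control-FMT and highest in control. Acss2, which makes acetyl-CoA from acetate, was at 144 ± 6.09 in HFD+AOS-FMT, 139 ± 2.48 in HFD+control-FMT and 151 ± 5.22 in HFD+AOS, against 115 ± 3.94 in HFD libraries. Without HFD it was at 133 ± 5.98 in AOS and 114 ± 18.3 in control libraries (log2 difference 0.23, limma adjusted p = 0.368). The log2 differences of Acss2 against HFD were 0.31, 0.27 and 0.39 in limma (adjusted p = 0.146, 0.9996 and 0.0561). All 3 differences were without overlap, which was not counted over all genes in this direction, and share the HFD libraries. Without control replicate 3 those of HFD+AOS-FMT and HFD+AOS passed (0.00412 and 0.000742).

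By role, 0 of the 12 regulators were called in limma, with 0 to 3 at an unadjusted p under 0.05 in each comparison, where 4.5% to 19% of all genes had one, and their log2 differences ran from -0.32 to 0.27 over the 8 comparisons. They include Nr1h3, the liver X receptor alpha that drives Srebf1, at 25.2 ± 0.934 in HFD+AOS and 31.7 ± 1.23 in HFD (log2 difference -0.32, limma adjusted p = 0.146, and 0.0113 without control replicate 3), and Mlxipl, the carbohydrate-responsive factor, at 61.4 ± 4.50 in HFD+AOS and 51.2 ± 3.54 in HFD (0.26, 0.195). Of 7 genes of precursor and NADPH supply, G6pdx and Pgd, the NADPH-making enzymes of the pentose phosphate pathway, were at -0.35 and -0.36 in HFD+AOS-FMT against control (limma adjusted p = 0.118 and 0.056). Both were highest in control replicate 3, without which the differences were -0.19 and -0.22 (0.253 and 0.0667). Without control replicate 1 both passed, at -0.48 and -0.43 (0.0392 and 0.0451), and without control replicate 2 Pgd passed (-0.44, 0.0219).

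The genes most like a member over the 18 libraries were named by Pearson r on the log2 scale, as a description. For Fasn they were Thrsp (0.927), Senp2, Scd1 (0.825), Fgf1 and Ubxn2a. Thrsp, a lipogenic protein of liver and fat, was at 23.5 in HFD+AOS-FMT replicate 2 and 18.7 in HFD+AOS replicate 3, the libraries with high Ucp1, and at 2.80 to 6.07 in the other 4 libraries of these groups. In HFD replicates 1, 2 and 3, Thrsp was at 16.55, 5.46 and 18.3 and Ucp1 at 42.9, 12.6 and 27.5. Other groups differed: Thrsp was highest in control replicate 1 (39.9), where Ucp1 was at 1.03. It was at 14.9 in AOS replicate 3 (Ucp1 0.82) and 6.29 in HFD+control-FMT replicate 3 (Ucp1 21.6). For Scd1 they were Arhgap24 (0.825), Fasn, Arvcf, Nans and Ttc4, and for Srebf1 Acsl3 (0.772), Rraga, Pigo, Mid1ip1 and Smarca5. For Scd2 they were Hoxd8 (0.928), Serpinb9, Sult1a1, Ildr1 and Slc2a4. Both genes of a pair share the depth and fat content of each library. The pairs of Scd2 also share its 1 extreme library, control replicate 3.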

How the data were processed

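The members were the table entries whose gene symbol is 1 of 10 names, and members, gene lists and tests were chosen with earlier results of these data known. Bowtie 0.12.2 and the mm10 build are named in the submitters' processing notes. What the authors deposited is 1 table with a normalized signal for each symbol in each library. How it was counted and scaled, and in what unit, is not given in the sources used here. Depth is unknown, and counting intervals were not computed. Column names were matched to sample titles by their group letters and replicate number. Of 19545 entries, 26 symbols turned into dates and 2 entries of 1 repeated symbol (Plin2) were left out.

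The 12030 genes that reached 1 in 3 or more libraries were fitted as log2(value + 1) in limma 3.58.1 (R 4.3.3), with 6 group means over all 18 libraries, 12 residual degrees of freedom, trend and robust estimation, two-sided tests and Benjamini-Hochberg adjustment over all genes tested within each of 8 comparisons, an interaction and an F test. The threshold was an adjusted p of 0.05. All adjusted p-values are from this tool. The fit was tested on simulated data. Single log2 differences are printed for genes with an unadjusted p under 0.05. The share of all genes without overlap was counted only for lower genes in HFD+control-FMT against HFD and higher genes in HFD+AOS-FMT against HFD+control-FMT. For Srebf1, Fasn, Scd1 and Scd2, the 5 genes of a mean of at least 5 with the highest Pearson r were named. Alternatives were quantile normalization, other pseudocounts, no filter, no trend or robust estimation, array weights, the groups compared alone, a replicate block, leaving out each library, a term for libraries whose 7 germ cell genes sum to at least 10, and a white fat covariate. The germ cell sum leaves out Smcp of the planned list. Covariates with brown fat, a score of Ucp1 and Cidea alone, were added after the data were seen. Gene coordinates are from GENCODE M21 on GRCm38 (mm10), and promoter sequences from RefSeq on GRCm38.p6.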

Additional observations from a re-analysis of the deposited data

How the results depend on the processing

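The 23 log2 differences of members with an unadjusted p under 0.05 kept their sign under every alternative run. They were picked by that p in the same data. Of 690 such values from alternatives, 665 also kept their side of the threshold, but all except 2 of the 23 had not passed to begin with. The 2 calls, Scd1 and Dgat2 in HFD+AOS-FMT against control, account for 19 values that lost the call. In 6 values a difference that had not passed did so. In HFD+AOS-FMT against control, 2 members passed. The count was 0 with the replicate block (adjusted p = 0.0547 for Scd1 and 0.05755 for Dgat2), 0 with the germ cell term, 0 with brown fat as a covariate, 0 with both fat scores, and 0 in the fit of the groups compared alone, and leaving out 1 library gave 0 to 3 (3 without control replicate 2, where Scd2 also passed at -0.81, limma adjusted p = 0.0484). For the F test, 1 member passed. The count was 0 after quantile normalization, with the replicate block, with the germ cell term, with white fat and with both fat scores as covariates, 5 with array weights, and 0 to 2 when 1 library was left out. With array weights 1 member passed in HFD+AOS against HFD, HFD+AOS against AOS and HFD+AOS-FMT against HFD, against 0 without, and leaving out 1 library gave 0 to 1 in HFD+AOS against HFD. The cause of these changes was not tested. Replicate numbers did not pair the libraries: 5 of 45 same-numbered pairs had a correlation of deviations over 0.1 (range -0.159 to 0.26), and 6 of 18 libraries correlated best with their own number. The block changed no other member count. The number of reads is unknown, which limits what can be said of low genes such as Elovl6.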
